A study of Homo sapiens with 6 samples.

Results

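The genes described are the chemokines and the chemokine receptors, 52 of the 19775 genes measured in the KOPTK1 line, which was established from a human T-cell leukaemia (T-ALL). They were taken from the array's annotation as the probe sets with 1 gene symbol that begins with CCL, CXCL, XCL, CX3CL, CCR, CXCR, XCR or CX3CR and a number, and the probe set with the highest mean over the 6 arrays stood for its gene. This gave 36 ligands and 16 receptors on 78 probe sets, and 32 of the 52 genes had 1 probe set. This rule used no difference between the groups, though the members were chosen with earlier results of these data known. The 6 RNA samples came from cells kept for 48 h with 1 µM PD0332991 (n = 3) or with vehicle (n = 3), and every sample was of the same line in the same medium. PD0332991, also called palbociclib, inhibits the cell cycle kinases CDK4 and CDK6. The comparison asks which of these RNAs differ after 48 h of the inhibitor. The submitters call the replicates biological triplicates. KOPTK1 is 1 line, so the p-values measure the spread between these cultures and not between leukaemias.

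Chemokines are small secreted proteins that guide the movement of leukocytes. They are grouped by the spacing of their first cysteines into the C, CC, CXC and CX3C classes, and they act on receptors with 7 membrane-spanning helices that couple to inhibitory G proteins. Signalling runs through G-protein subunits, phosphoinositide 3-kinase gamma, Rac and integrins, and is ended by receptor kinases and beta-arrestins. In the T lineage CXCR4 and CCR9 serve developing thymocytes, CCR7 serves entry into lymph nodes, and ligands such as XCL1 and CCL4 are made by activated cytotoxic cells.

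The arrays had median intensities between 49.1 and 54.3, and arrays within a group had Pearson r of 0.993 to 0.996, taken across genes, which are no replicates. The deposited values are linear intensities with no detection calls, so a low value cannot be told from background, and between 24.2% and 26.4% of the values of each array lay below 16. Fold changes are on the scale log2(intensity + 16), which understates the change of dim genes, and p-values are from limma, adjusted over the 19775 genes, with 0.05 as the threshold. All 10 measured T cell markers lay above 86.0, the median of all genes' vehicle means, the lowest being CD7 at 256 with vehicle. Of these markers 7 rose, while 15.6% of all genes rose. With only genes above the median mean intensity in the fit, 62.3% passed in either direction. The sums of the 10 markers were 29445 to 30708 with PD0332991 and 23282 to 25627 with vehicle. Summed levels of the markers of other cells were, with PD0332991 and with vehicle, 565 to 718 and 333 to 390 for 3 B cell genes, 167 to 182 and 196 to 203 for 4 myeloid genes, 128 to 136 and 117 to 152 for 4 NK cell genes, and 2080 to 2168 and 1447 to 1594 for 5 stromal or endothelial genes. CD79A of the B cell list and PECAM1 of the stromal or endothelial list held most of their sums and rose, by 0.94 and 0.55 on the log2 scale, and the part of such markers in the results below was not tested. HBB was the erythroid marker measured, at 143 to 196 with PD0332991 and 159 to 192 with vehicle.

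Of the 52 genes, 9 were higher and 3 lower with PD0332991, and 40 did not pass. That is 23.1% of them, while 29.3% of all genes passed. Most members were dim, and the share was larger among brighter genes: with only genes of a mean intensity above 64 in the fit, 8 of 13 members passed, against 58.3% of all such genes. With only genes above the median mean intensity, 7 of 9 members passed, against 62.3%. These means were over the 6 arrays, so a gene could enter through the group where it was high. XCL1 and CXCL12, with vehicle means of 28.4 and 51.1, entered the first count through their PD0332991 arrays. XCL1 and CCL22, with vehicle means of 28.4 and 66.4, entered the second in the same way. All of them are counted as passing. The split was 17.3% higher and 5.77% lower among the members, and 15.6% higher and 13.6% lower among all genes. The groups did not overlap for 15 of the 52 genes, against 43% of all genes. The median log2 fold change was 0.01 for the members and 0.01 for all genes. The members that changed most were the ligands XCL1 and CCL20 and the receptors CCR1 and CCR9, which rose, and the receptor CXCR4, which fell.

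**Figure D1:**
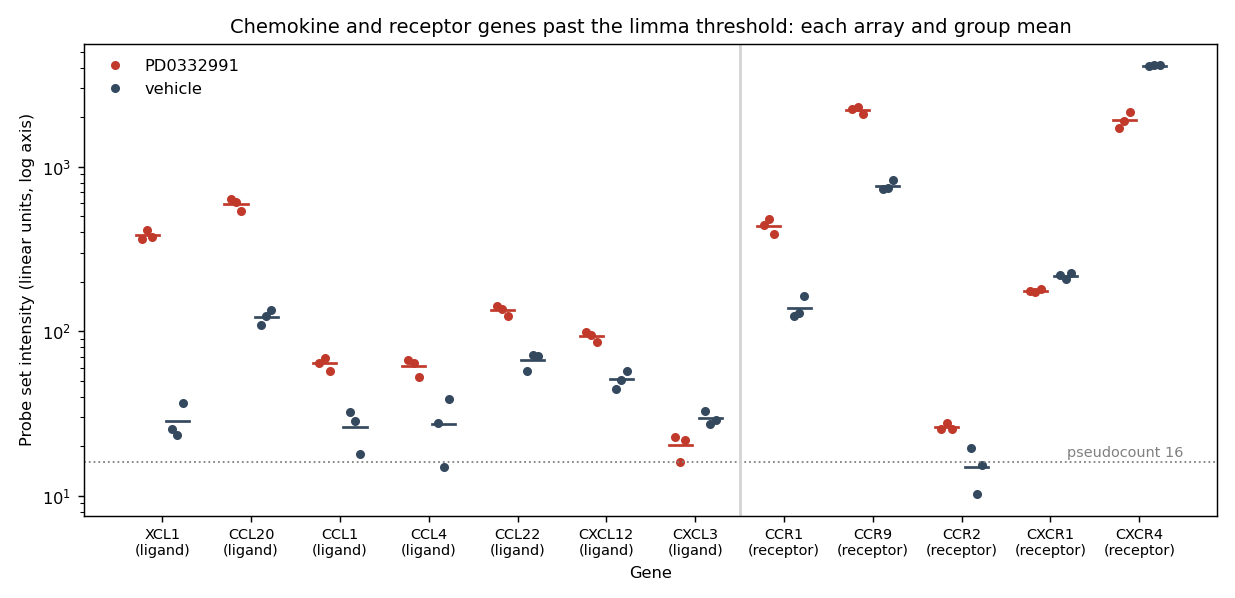
Intensity on each array (points, log axis) and group mean (bars) for the 12 chemokine and receptor genes past the limma threshold, with PD0332991 to the left of vehicle for each gene. The groups do not overlap for any of the 12, which were picked by a test on these same arrays, nor for 43% of all genes. The vehicle arrays of XCL1, CCL1, CCL4 and CCR2 and all arrays of CXCL3 lie near the pseudocount of 16.

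Receptors stood higher on the array than ligands with vehicle. Of the 16 receptors 6 had a vehicle mean above 86.0 (CXCR4, CCR9, CCR7, CXCR1, CCR1 and CXCR3), while CCL20 was the 1 ligand of 36 to do so. With PD0332991 the same 6 receptors and 4 ligands (CCL20, XCL1, CCL22 and CXCL12) exceeded the corresponding median of 88.2. Probe sets of different genes bind with different strength, so these counts describe probe sets and give no order of RNA abundance. Of the ligands 30 had means under 64 in both groups, as had 9 of the receptors. By class, 6 ligands were higher and 1 lower (19.4% called), and 3 receptors were higher and 2 lower (31.2% called). Of all genes 29.3% were called. That share was larger among brighter genes, and ligands and receptors were not matched for brightness. The median log2 fold change was 0.01 for ligands and −0.02 for receptors.

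**Figure D2:**
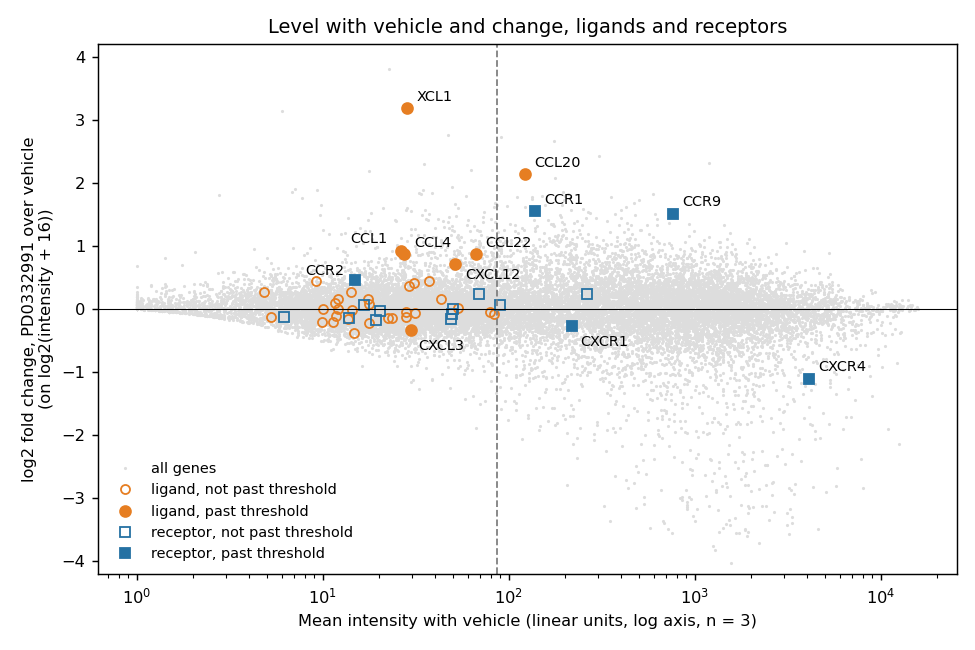
Log2 fold change of PD0332991 over vehicle against the vehicle mean intensity (log axis, n = 3) for ligands (circles), receptors (squares) and all genes (grey), with the median of all genes' vehicle means at 86.0 as a dashed line. Most ligands sit to the left of the line and near 0, and CCL20, CCR9, CCR1 and CXCR4 are the brighter members with large changes.

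Among the ligands, XCL1 and CCL20 had the largest increases. CCL20 attracts CCR6-bearing T and B cells. Its intensity was 632, 613 and 537 on the PD0332991 arrays, against 109.6, 123 and 134 on the vehicle arrays. Every treated array lay far above every vehicle array. The means were 594 ± 50.7 with PD0332991 and 122 ± 12.2 with vehicle (SD, n = 3 each), which is a log2 difference of 2.14 (SE 0.10, adjusted p = 4.9e-05 by limma), or 4.42-fold. In these bulk samples, more cells that make an RNA and more of that RNA per cell cannot be told apart. CCL20 had 1 probe set and passed under all 17 alternatives tried for it, with log2 fold changes of 1.82 to 2.27.

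The sequences before the transcription starts of CCL20, CCR9, CCR1 and CXCR4 are shown because these genes had large changes on bright probe sets. They are the 250 bases before the start on the gene's strand, from RefSeq on GRCh38.p14. Capitals mark TATAAA and a kappaB-like pattern (GGGA, any 4 bases, CC), on either strand. The windows are chr2:227813592-227813841 (plus strand) for CCL20, chr3:45886293-45886542 (plus strand) for CCR9 at the more upstream of its 2 starts in the table, chr3:46208314-46208563 (minus strand) for CCR1 and chr2:136118150-136118399 (minus strand) for CXCR4, at the most upstream of its 3 starts in the table.
CCL20: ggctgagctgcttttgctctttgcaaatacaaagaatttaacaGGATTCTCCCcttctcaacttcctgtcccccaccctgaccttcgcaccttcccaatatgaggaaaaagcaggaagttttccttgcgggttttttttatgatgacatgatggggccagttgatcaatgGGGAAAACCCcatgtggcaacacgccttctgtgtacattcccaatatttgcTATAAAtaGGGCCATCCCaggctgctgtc
CCR9: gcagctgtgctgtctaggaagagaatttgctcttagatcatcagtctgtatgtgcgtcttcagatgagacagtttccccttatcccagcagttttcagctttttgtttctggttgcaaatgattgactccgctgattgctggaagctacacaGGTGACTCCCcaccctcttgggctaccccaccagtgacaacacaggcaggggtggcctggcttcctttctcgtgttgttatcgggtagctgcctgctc
CCR1: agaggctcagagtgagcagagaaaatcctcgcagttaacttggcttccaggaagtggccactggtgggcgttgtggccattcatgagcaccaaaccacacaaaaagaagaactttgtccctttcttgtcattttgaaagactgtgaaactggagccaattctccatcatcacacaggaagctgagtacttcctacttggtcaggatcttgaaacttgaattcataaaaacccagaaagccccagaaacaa
CXCR4: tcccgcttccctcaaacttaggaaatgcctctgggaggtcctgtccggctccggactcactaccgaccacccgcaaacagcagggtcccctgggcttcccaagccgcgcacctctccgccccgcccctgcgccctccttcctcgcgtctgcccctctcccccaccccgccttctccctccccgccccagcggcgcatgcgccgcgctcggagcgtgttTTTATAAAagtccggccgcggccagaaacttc

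The CCL20 window held TATAAA 29 bases before the start and the kappaB-like pattern on its own strand at 80 bases and on the other strand at 207 and 21 bases before it. The CCR9 window held the kappaB-like pattern on the other strand at 98 bases. The CXCR4 window held TATAAA at 30 bases on its own strand and, overlapping it, at 32 bases on the other strand. It also held 3 copies of the GC box GGGCGG on the other strand, at 135, 130 and 70 bases. The CCR1 window held none of the 5 patterns searched, which also included the AP-1 pattern TGANTCA and the E2F patterns TTTGGCGC and TTTCCCGC. Among all 35116 windows of this length in the table, 10.7% held TATAAA, 22.6% the kappaB-like pattern, 42.6% the GC box, 6.57% the AP-1 pattern and 1.93% an E2F pattern. Of the 52 members 39 had at least 1 window, and several had more than 1. A gene was counted if any of its windows held the pattern, so the counts of genes and the shares of windows are unlike measures. Of the 10 changed members with a window 6 held the kappaB-like pattern and 0 an E2F pattern. CXCR4 is among the 6 through a start other than the one shown. Of all 39 members, 17 held the kappaB-like pattern and 1 an E2F pattern. These are matches of letters and not measured binding.

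XCL1, or lymphotactin, is the C-class chemokine of activated cytotoxic T cells and NK cells. Its intensity was 366, 411 and 374 with PD0332991, against 25.4, 23.3 and 36.6 with vehicle. The treated arrays stood far above the vehicle arrays, which lay little above the pseudocount. The log2 fold change was 3.18 (SE 0.12, adjusted p = 3.0e-05 by limma), or 9.06-fold on this scale. Since the vehicle arrays may read background alone, this is a ratio of intensities and not a measured fold of the RNA. The 4 NK cell markers had means between 4.28 and 73.9 with vehicle, none above the median of all genes. None of the 4 passed, against 29.3% of all genes, and a part of NK cells in the XCL1 values was not tested.

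The probe sets for XCL1 did not give the same change. The one used has an ID ending in _x_at, which can match several transcripts, and the neighbouring gene XCL2 encodes a nearly identical protein. A probe set annotated to XCL2 and XCL1 together read 227, 258 and 246 with PD0332991, against 14.5, 9.1 and 21.1 with vehicle, and its log2 fold change was 3.09 (SE 0.15). The other probe set of XCL1 alone read 47.5, 36.4 and 41.8 with PD0332991, against 21.7, 20.1 and 36.9 with vehicle. That is a log2 fold change of 0.47 and adjusted p = 0.098 by limma in the fit over all probe sets, in which 21% passed. Which of XCL1 and XCL2 the increase belongs to cannot be told from these probe sets.

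CCL22, CCL1 and CCL4 are CC chemokines. CCL22, which attracts CCR4-bearing T cells, read 142, 137 and 124 with PD0332991, against 57.5, 71.2 and 70.6 with vehicle. The lowest treated array was above the highest vehicle array, and the log2 fold change was 0.87 (SE 0.09, adjusted p = 0.0010 by limma). It passed under all 17 alternatives. CCL1, a ligand of CCR8 made by activated T cells, read 64.3, 69.1 and 57.6 with PD0332991, against 32.5, 28.5 and 17.9 with vehicle. Its log2 fold change was 0.93 (SE 0.14, adjusted p = 0.0047 by limma), and it passed under all 15 alternatives that tested it.

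CCL4, also called MIP-1 beta and released by activated cytotoxic lymphocytes, read 66.9, 64.2 and 52.8 with PD0332991, against 27.5, 14.9 and 38.9 with vehicle. The vehicle arrays differed among themselves by more than the treated ones. The log2 fold change was 0.88 (SE 0.21, adjusted p = 0.025 by limma). The call was lost without PD0332991 replicate 1, 2 or 3 (adjusted p = 0.0853, 0.0783 and 0.0508) or vehicle replicate 1 (0.0709). A probe set shared by CCL3 and its copies CCL3L1 and CCL3L3, whose product acts much like CCL4, read 39.4, 43.1 and 28.2 with PD0332991, against 40.4, 45.7 and 32.7 with vehicle, and did not pass.

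Of the CXC ligands, CXCL12 rose and CXCL3 fell. CXCL12, the ligand of CXCR4 made by marrow and thymic stroma, read 99.3, 95.2 and 86.3 with PD0332991, against 44.8, 50.8 and 57.6 with vehicle. All treated arrays were above all vehicle arrays, with a log2 fold change of 0.71 (SE 0.09, adjusted p = 0.0021 by limma). Its dimmer probe set, at 7.64, 3.90 and 2.18 with PD0332991 and 12.0, 12.7 and 7.27 with vehicle, gave −0.38 and did not pass, and averaging both probe sets gave 0.17 (adjusted p = 0.210). CXCL3, a neutrophil attractant that acts on CXCR2, read 22.7, 16.1 and 21.7 with PD0332991, against 32.7, 27.3 and 29.0 with vehicle, all near the low end of the scale. Its log2 fold change was −0.34 (SE 0.09, adjusted p = 0.039 by limma). The call was lost without vehicle replicate 1, 2 or 3 (adjusted p = 0.122, 0.0704 and 0.0784) or PD0332991 replicate 2 or 3 (0.0731 each).

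The other 29 ligands did not pass, and 27 of them had means under 64 in both groups. Their log2 fold changes ran from −0.39 for CXCL2 to 0.45 for CXCL17. The brighter ones were CCL18, a macrophage product, with 79.7 ± 20.7 with PD0332991 and 83.3 ± 5.1 with vehicle, and CX3CL1, the membrane-bound chemokine, with 75.8 ± 3.5 and 79.0 ± 9.4 (SD, n = 3 each). Their differences were −0.08 (95% interval −0.49 to 0.33) and −0.04 (−0.25 to 0.16). CCL28, a mucosal chemokine, read 52.2 to 55.2 with PD0332991 and 43.2 to 68.0 with vehicle. The inflammatory ligands CCL2, CCL5, CXCL8 and CXCL10 had means between 10.6 and 27.9 with PD0332991 and between 12.1 and 28.1 with vehicle. Also not past the threshold were CCL7, CCL8, CCL11, CCL16, CCL17, CCL19, CCL21, CCL23, CCL24, CCL25, CCL26 and CCL27, and CXCL1, CXCL5, CXCL6, CXCL9, CXCL11, CXCL13, CXCL14 and CXCL16.

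Among the receptors, CCR9 and CCR1 rose and CXCR4 fell, each on a bright probe set. CCR9, which responds to CCL25 and marks thymocytes and gut-homing T cells, read 2256, 2306 and 2081 with PD0332991, against 732, 742 and 827 with vehicle. The groups were far apart and each was tight. The means were 2214 ± 118 with PD0332991 and 767 ± 52.4 with vehicle (SD, n = 3 each), which is a log2 difference of 1.51 (SE 0.08, adjusted p = 6.9e-05 by limma). Its 1 probe set ends in _s_at, and it passed under the 16 alternatives that kept it, between 1.46 and 1.57.

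CCR1, a receptor for CCL3 and CCL5 best known on myeloid cells and also found on T cells, read 441, 479 and 388 with PD0332991, against 123, 129 and 164 with vehicle. The groups were far apart. The log2 fold change was 1.55 (SE 0.13, adjusted p = 3.7e-04 by limma). The other probe set of CCR1 read 268, 250.2 and 236 with PD0332991, against 80.7, 84.4 and 99.8 with vehicle, and gave 1.36 (SE 0.09). Of the myeloid markers, CD14, CSF1R and LYZ did not pass and MPO fell by 0.26 on the log2 scale. A part of myeloid cells in the CCR1 values was not tested.

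CCR2, the monocyte receptor for CCL2, read 25.5, 27.6 and 25.4 with PD0332991, against 19.4, 10.2 and 15.3 with vehicle, where the vehicle mean of 14.9 lies below the pseudocount. Its log2 fold change was 0.46 (SE 0.11, adjusted p = 0.029 by limma). The call was lost without PD0332991 replicate 1, 2 or 3 (adjusted p = 0.0751, 0.0868 and 0.0746) or vehicle replicate 3 (0.0636). The dimmer probe set of CCR2 gave −0.19, and averaging both gave 0.13 (adjusted p = 0.433).

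CXCR4, the receptor that holds leukocytes and leukaemia cells in the marrow, was the brightest member. It read 1722, 1902 and 2143 with PD0332991, against 4121, 4132 and 4127 with vehicle. The vehicle arrays were nearly equal, and every treated array lay far below every one of them. The log2 fold change was −1.10 (SE 0.09, adjusted p = 3.4e-04 by limma), 2.15-fold lower. Its other probe sets gave −1.24 and −1.27 (SE 0.10 and 0.11), and it passed under all 17 alternatives, from −1.21 to −1.03.

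CXCR1, a neutrophil receptor for CXCL8, read 177, 172 and 180.4 with PD0332991, against 219, 207 and 226 with vehicle. The groups did not overlap, but the difference was small, a log2 fold change of −0.28 (SE 0.06, adjusted p = 0.015 by limma), and its adjusted p was 0.0552 without vehicle replicate 1. Its close relative CXCR2 averaged 4.5 with PD0332991 and 6.2 with vehicle.

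The other 11 receptors did not pass, with log2 fold changes from −0.18 for CCR6 to 0.25 for CXCR6. CCR7, the lymph node homing receptor, read 296, 356 and 282 with PD0332991, against 218, 252 and 319 with vehicle. The groups overlapped, and the difference of 0.24 had a 95% interval from −0.13 to 0.62, so a moderate increase was not resolved with 3 arrays a group. CXCR3, the receptor of effector T cells for CXCL9, CXCL10 and CXCL11, averaged 95.3 ± 17.8 with PD0332991 and 89.9 ± 0.98 with vehicle (SD, n = 3 each), a difference of 0.06 with an interval from −0.24 to 0.35. CXCR6, CCR6, CCR8, CCR4, CCR10, CXCR5, XCR1 and CX3CR1 had means from 11.6 to 83.9 with PD0332991 and from 13.9 to 68.8 with vehicle.

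**Figure D3:**
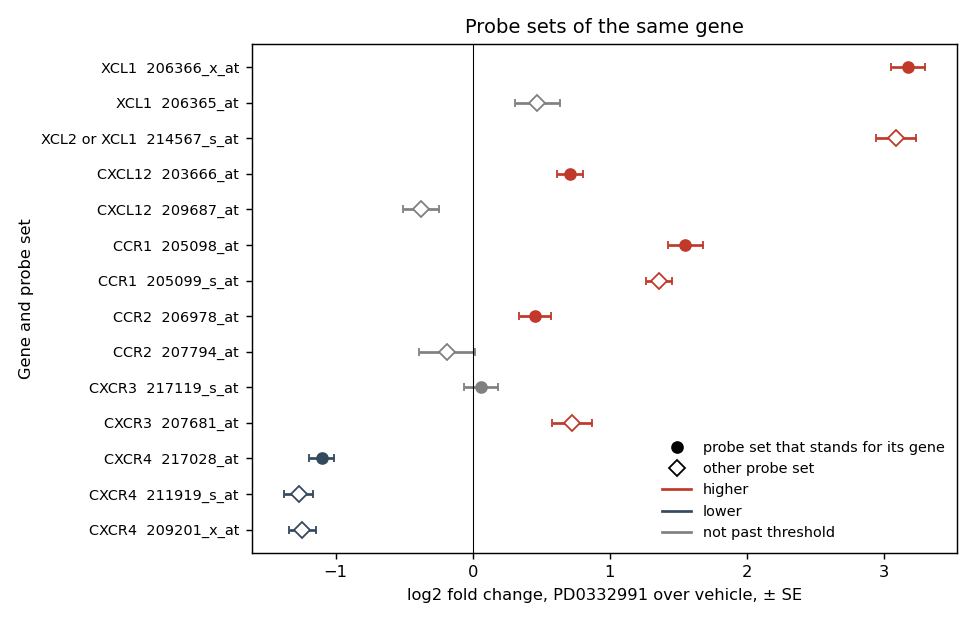
Log2 fold change with its SE for each probe set of 6 members that had several and of the set annotated to XCL2 and XCL1, from the fit over all probe sets. CXCR4 and CCR1 gave the same direction on every probe set, while the probe sets of XCL1, CXCL12, CCR2 and CXCR3 differed in size or sign.

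Of the 20 members with several probe sets, none had probe sets called in both directions. In the fit over all probe sets 11 of the 78 member probe sets were higher and 4 lower, against 10.7% and 10.2% of all probe sets.

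Ligands were also set beside their receptors. Of 30 textbook ligand and receptor pairs with both genes measured, 1 pair had both genes called, 5 the ligand alone, 7 the receptor alone and 17 neither. With 29.3% of all genes called, these counts are a description of the pairs. The 1 pair was CXCL12 and CXCR4, whose changes were opposite in sign on the probe sets that stood for them. The dimmer probe set of CXCL12 gave −0.38 and did not pass. With both probe sets averaged, CXCL12 was at 0.17 and did not pass (adjusted p = 0.210 by limma). CCL20 rose while its receptor CCR6, at 15.4 ± 2.8 with PD0332991 and 19.4 ± 2.1 with vehicle (SD, n = 3 each), gave −0.18 (95% interval −0.39 to 0.04). XCL1 rose while XCR1 averaged 11.6 with PD0332991 and 13.9 with vehicle. CCR9 rose while its ligand CCL25 averaged 13.2 with PD0332991 and 17.6 with vehicle, near the pseudocount. CCR4, the receptor for CCL22, gave 0.00 (95% interval −0.25 to 0.26), and CCR8, the receptor for CCL1, gave −0.16 (−0.38 to 0.06). A pair shares a gene with others in the list, so the pairs are not independent.

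**Figure D4:**
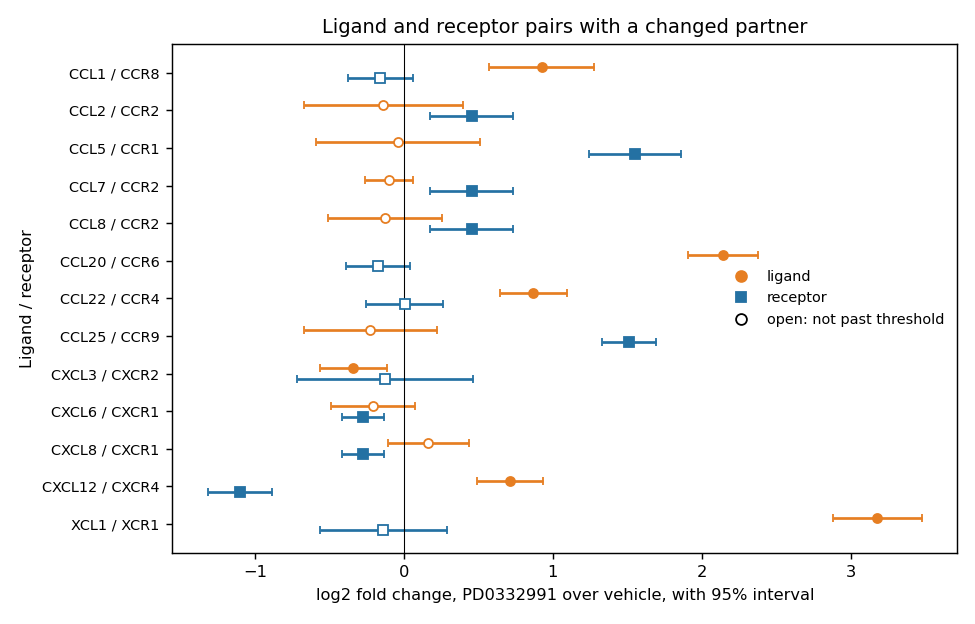
Log2 fold change with its 95% interval for the ligand (circle) and the receptor (square) of each measured pair in which at least 1 gene passed, with open symbols for genes that did not. CXCL12 and CXCR4 are the 1 pair with 2 filled symbols, on opposite sides of 0. The brighter probe set of CXCL12 is drawn, and its dimmer one gave −0.38 and did not pass.

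Members also share chromosomal clusters, in RefSeq order. The 8 receptors on chromosome 3 lie in the order CCR4, CX3CR1, CCR8, CCR9, CXCR6, XCR1, CCR1 and CCR2. All 3 receptors that rose are among the last 5 of these, with CXCR6 and XCR1 between them not called. Of the 11 ligands on chromosome 17, CCL1 and CCL4 rose. Of the 3 on chromosome 16, CCL22 rose while CX3CL1 and CCL17 did not pass, and of the 10 CXC ligands on chromosome 4, CXCL3 fell and 9 did not pass. CCR1 and CCR2 are neighbours among the members and both rose. The rise of CCR2 started from a vehicle mean below the pseudocount and passed under 8 of 15 alternatives. Among all genes 15.6% were higher, and a part of chromosomal position in these changes was not tested.

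Genes that act beside the members were taken from 4 lists. Of 8 atypical receptors and chemokines with other names, 2 rose and 6 did not pass, and their median was 0.03. ACKR4, a scavenger of CCL19, CCL21 and CCL25, was at 0.54 with an unadjusted limma p of 0.0199 and an adjusted one of 0.0633. ACKR3, the scavenging receptor of CXCL12, read 410.3 ± 21.8 with PD0332991 and 177 ± 33.2 with vehicle (SD, n = 3 each), which is a log2 difference of 1.16 (SE 0.13, adjusted p = 0.0013 by limma). Its dimmer probe sets gave 0.58 and 0.10 and did not pass. CCRL2, which presents chemerin and does not signal, rose by 0.75 (SE 0.09).

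Of 5 enzymes that process chemokines or their receptors, 4 rose, with a median of 0.25. TPST2, which sulphates receptor tyrosines, rose by 0.47, the sheddases ADAM10 and ADAM17 by 0.31 and 0.25, and DPP4, the protease that inactivates CXCL12, by 0.21. The other probe sets of ADAM17 gave −0.09 and 0.13 and did not pass. Of 29 measured signalling genes 9 rose and 3 fell, with a median of 0.06. PIK3CG, the catalytic subunit of phosphoinositide 3-kinase gamma, rose by 0.76 (SE 0.06) and on all 3 of its probe sets, and RASSF5, which links Rap1 to integrins, rose by 0.58. The phospholipase gene PLCB2 read 70.3 ± 2.1 with PD0332991 and 7.1 ± 2.0 with vehicle, a log2 fold change of 1.90 whose size depends on the pseudocount, since the vehicle arrays lie below it, while its other probe set gave −0.31 and did not pass. The G-protein beta subunit gene GNB2 fell by 0.58.

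Of 16 measured genes of receptor desensitisation 4 rose and 3 fell, with a median of −0.02. ARRB1, which encodes a beta-arrestin, rose by 0.84 (SE 0.08), and 2 further probe sets of it gave 0.83 and 0.96, while 4 dimmer ones did not pass. RGS14 rose by 0.51, and RGS13, whose vehicle mean of 9.1 is below the pseudocount, rose by 0.77. Both encode proteins that speed the shut-off of G proteins. The other probe sets of RGS13 gave 0.29 and 0.04 and did not pass. Those of RGS14 gave 0.47, which passed, and −0.12, which did not. GRK3, a receptor kinase that phosphorylates CXCR4, fell by 0.48 (SE 0.07) and on all 3 of its probe sets. These lists were chosen with earlier results of the series known, and 29.3% of all genes passed. Most listed genes were bright: 4 of 5 enzymes, 26 of 29 signalling genes and 13 of 16 desensitisation genes had vehicle means above the median of all genes. With only genes above the median mean intensity in the fit, 62.3% passed.

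**Figure D5:**
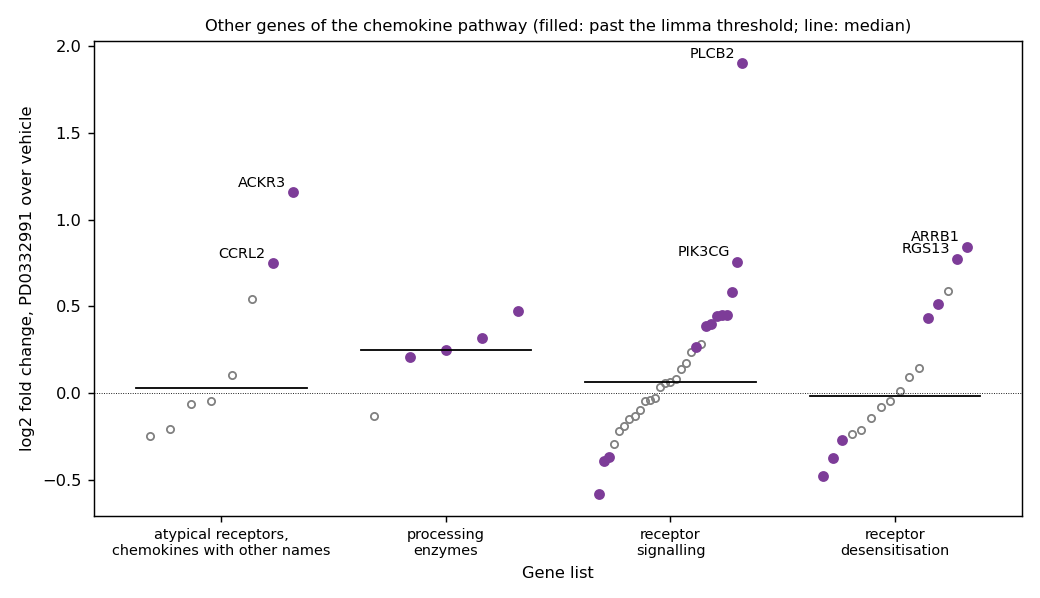
Log2 fold change of PD0332991 over vehicle for the measured genes of 4 chemokine pathway lists (filled points passed the limma threshold, lines are list medians). The medians lie between −0.02 and 0.25, ACKR3 is at 1.16, and PLCB2 is at 1.90 from vehicle arrays below the pseudocount of 16.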

How the data were processed

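Per the labels' protocols, total RNA of 6 KOPTK1 cultures was labelled with biotin for Affymetrix arrays. The authors deposited 54675 linear probe set intensities per array. Their summary and scaling steps are not given in the sources used. Scaled arrays show shares of RNA and no change of the total amount in a cell.

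The 62 control probe sets were left out. The platform annotation gave 1 symbol to 41091 probe sets, several to 1801 and none to 11721, and symbols were updated by gene ID through RefSeq GRCh38.p14 (54 probe sets had no match). The probe set with the highest mean over the 6 arrays stood for its gene. Values were taken as log2(intensity + 16) and compared by lmFit and eBayes of limma 3.58.1 (R 4.3.3) in two-sided tests. In the fit over genes these tests had 4 residual degrees of freedom, to which eBayes added 2.06 prior ones. Benjamini-Hochberg adjustment ran over 19775 genes. Another fit used all 54613 probe sets. Simulated data were used to test the code, and figures were drawn with matplotlib 3.10.9.

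The members and lists were chosen with earlier results of these data known. Full statistics are given for every member past the threshold, and values for the 5 brightest ligands and receptors, for partners of changed members and for up to 4 changed genes per list with the largest changes. Same-numbered arrays did not deviate together (r of deviations from the group means 0.0033, 0.08 and 0.08 for replicates 1, 2 and 3), so the numbers are not taken to pair them. Alternatives were the replicate block, each array left out, quantile and median scaling, brighter genes only, other choices of probe set, pseudocounts of 1 and 64, eBayes with a trend or robust, and all probe sets. CCL3, CCL14, CCL15 and XCL2 have only probe sets with several symbols in the annotation and are not among the members. The number of arrays, 3 a group, limits the precision.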

Additional observations from a re-analysis of the deposited data

Results flagged for a closer look

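A pair of probe sets outside the gene-level comparison passed in the fit over all probe sets. The dimmer probe set of CXCR3 read 55.3, 73.5 and 55.9 with PD0332991, against 25.8, 27.9 and 39.7 with vehicle, a log2 fold change of 0.72 (SE 0.15, adjusted p = 0.017 by limma), while the probe set that stood for CXCR3 gave 0.06. The probe set annotated to XCL2 and XCL1 together had a log2 fold change of 3.09 (adjusted p = 8.0e-05 by limma).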

How the results depend on the processing

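With 1 array left out, the changed genes numbered between 4257 and 5689 against 5786 in all 6 arrays, the members that rose between 7 and 11 against 9, and the members that fell between 1 and 3 against 3. The 1 was without vehicle replicate 1, where CXCL3 and CXCR1 lost their calls. Without vehicle replicate 2, CCL11 (0.52), CCL19 (0.44) and CXCL2 (−0.55) also passed, and without vehicle replicate 3, CXCL13 (0.35) and CXCL17 (0.63). Over all probe sets in place of 1 per gene 11446 passed, of more features tested. Among genes above the median mean intensity 5 members rose and 2 fell, of 9 tested, and 62.3% of all such genes passed. XCL1 and CCL22, among the 5, entered this fit through their PD0332991 arrays. With the replicate block 7 members rose and 3 fell, as CCL4 (adjusted p = 0.0592) and CCR2 (0.0636) lost their calls, 4793 genes passed, and no other member's call changed. With a pseudocount of 1, CCL4 (0.0561), CXCL3 (0.0523) and CCR2 (0.0532) lost theirs. CXCL3 also lost its call with a pseudocount of 64 (0.0535) and with a trend (0.0887). When probe sets of the _x_at and _s_at kinds were left out, XCL1 was at 0.47 (0.0884), and CXCR3 was at 0.72 and passed. None of the 12 changed members reversed, but no gene-level alternative took the dimmer probe set of CXCL12 or CCR2 alone. Those 2 probe sets gave −0.38 and −0.19. The 194 values of the 12 changed members under the alternatives kept the call in 170 and lost it in 24. The 6 members named above as also passing are all that gained a call, of 40 that had not passed. For 16 of the 40 (the brightest ligands and receptors and the partners of changed members), 19 of 241 values changed sign, all of differences that did not pass. With 1 array left out, the range was −0.25 to 0.0120 for CCL8, −0.32 to 0.10 for CCL2, −0.10 to 0.0346 for CX3CL1, −0.20 to 0.11 for CCL18, −0.20 to 0.21 for CCL5, −0.0875 to 0.16 for CCL28, −0.27 to 0.0536 for XCR1 and −0.11 to 0.0719 for CCR4. Averaging probe sets gave 0.0440 for CX3CL1, 0.0070 for CCL5 and −0.19 for CCL28, and leaving out _x_at and _s_at probe sets gave −0.44 for CCL28. CCR4 was at −0.0096 after quantile and −0.0073 after median scaling. The cause of these changes was not tested. Without detection calls, dim members cannot be told from background.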
